A study of Mus musculus with 23 samples.

Results

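Ribosome biogenesis genes are described here in mouse macrophages grown from bone marrow (bone marrow-derived macrophages) and given lipopolysaccharide (LPS), a component of the outer membrane of Gram-negative bacteria. The 38 members were taken by gene symbol from a list chosen with earlier results of these data known, out of 55401 genes in the count table. They fall into 5 roles, with 6 genes of the RNA polymerase I machinery, 4 abundant nucleolar proteins, 6 proteins of small nucleolar ribonucleoproteins (snoRNPs), 11 factors of small subunit processing and 11 factors of large subunit processing. Each symbol matched a single gene, the members lie on 18 chromosomes, and all 38 passed the filter on low counts that kept 18083 genes for testing.

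Ribosomes are made in the nucleolus, where RNA polymerase I transcribes a long precursor of ribosomal RNA. SnoRNPs guide the methylation and pseudouridylation of that precursor, and separate groups of assembly factors then cut, fold and export the parts that become the small and the large subunit. The pathway is known to follow growth signals and the transcription factor Myc, and it takes up a large part of the energy of growing cells.

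The study compared cells labelled Selenow knock-out, called KO below, with wild-type (WT) cells. Selenow encodes selenoprotein W, a small protein that contains selenocysteine. Both genotypes were left untreated (0 h) or were exposed to LPS at 100 ng/ml for 4, 8 or 24 h. The libraries carry running numbers, which name them below. KO libraries are 13 to 15 at 0 h, 16 to 18 at 4 h, 19 to 21 at 8 h, and 22 and 23 at 24 h, and WT libraries are 1 to 3, 4 to 6, 7 to 9 and 10 to 12 in the same order of times. The labels used here name neither the allele nor the age or sex of the mice, nor whether the replicates are separate animals or separate cultures, so p-values measure the spread between libraries only. No untreated library of a later time was analysed, so LPS and time in culture cannot be told apart.

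Library totals lay between 39001456 and 41819953 counted fragments, and a count of 0 allowed at most 0.0769 CPM (counts relative to the size of the library), a limit that covers counting error only. All 8 macrophage markers were detected in every group, with a summed level of 12831 to 28023 CPM. Markers of T and NK cells summed to at most 1.24 CPM. Markers of other cells moved with time or genotype. Those of B cells summed to 146 to 179.8 CPM in KO and 108 to 146 CPM in WT cells at 0 h, and to at most 1.39 CPM at 24 h. Those of neutrophils and their precursors summed to 206 to 232 CPM in KO and 124 to 158 CPM in WT cells at 0 h, to 76.3 to 118 CPM and 57.9 to 87.2 CPM at 8 h, and to 169.7 to 194 CPM and 126 to 333 CPM at 24 h. Among them, the precursor genes Ngp and Ltf averaged 2.01 and 1.998 CPM in KO cells at 24 h, against 62.3 and 40.5 CPM at 0 h, and 0.422 and 0.383 CPM in WT cells at 24 h, against 43.4 and 23.7 CPM at 0 h. Most of the 24 h sum was the single gene Mmp8, at a mean of 164 CPM in KO and 248 CPM in WT cells. At 8 h Mmp8 averaged 22.5 and 17.2 CPM. S100a8 and S100a9 averaged 5.64 and 7.69 CPM in KO and 2.82 and 3.06 CPM in WT cells at 24 h, lower than at 8 h. Those of dendritic cells averaged 2.44, 26.5, 11.5 and 3.05 CPM in KO and 2.21, 22.7, 18.5 and 5.12 CPM in WT cells at 0, 4, 8 and 24 h. Those of stromal cells reached 67.4 CPM in KO and at most 8.46 CPM in WT cells. Their part in the results below was not tested. Selenow was at 106, 191, 260.4 and 181 CPM in KO libraries 13, 16, 19 and 22 and at 39.4 to 135 CPM in the other 7 KO libraries, against 103 to 327 CPM in the 12 WT libraries. In libraries 13, 16 and 22 it lay within the range of the WT libraries of the same time, and in library 19 it lay below that range of 303 to 327 CPM but above the other KO libraries. KO therefore names the label only. A further 8 libraries, 1 in each group (14, 17, 20 and 23 in KO; 3, 6, 9 and 12 in WT), had been found to deviate together across all genes in earlier work on these data. The labels give no batch for them, and results that depend on them or on libraries 13, 16, 19 and 22 are given with and without them.

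The promoters are shown because several members rose or fell together within hours of LPS. RefSeq (GRCm38.p6) had start sites for 33 of the 38 members, with 42 windows of 250 bases before to 50 bases after a start. Rrp12, Npm1, Fbl, Bop1 and Rrs1 had no entry in that table. Every window was searched on both strands for CACGTG (the E-box that Myc and other factors can bind), GGGCGG or CCGCCC (GC box), CCGGAA or TTCCGG (core of ETS family sites), CCAAT or ATTGG, and TATAAA or TTTATA. The E-box was found in 16.7% of the members' windows, against 9.51% of 14108 windows of tested genes and 7.15% of all 32851 windows. GC boxes were found in 73.8% of the members' windows, against 58.8% of the windows of tested genes. ETS cores were found in 35.7% of the members' windows, against 25.8% of the windows of tested genes. CCAAT boxes were found in 23.8% and TATA boxes in 4.76% of the members' windows, against 37.4% and 7.52% of the windows of tested genes. The E-box windows belong to 7 genes, Rrn3, Nop2, Ltv1, Mybbp1a, Wdr43, Utp20 and Pes1. In Rrn3 and Nop2 the E-box lies before the start, in the others within the 50 bases after it. A match describes letters in a window and does not show binding.

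The 250 bases before the start of 6 members are given 5′ to 3′ on the gene's strand, with E-boxes, GC boxes and ETS cores in capitals. Rrn3 has E-boxes that begin 215 and 48 bases before its start, and Nop2 has 1 that begins 60 bases before. Mybbp1a and Gar1 are members that rose at 4 h of LPS, and Utp20 and Dkc1 are among those that fell most at 8 h.
Rrn3, chr16:13780449-13780698, plus strand: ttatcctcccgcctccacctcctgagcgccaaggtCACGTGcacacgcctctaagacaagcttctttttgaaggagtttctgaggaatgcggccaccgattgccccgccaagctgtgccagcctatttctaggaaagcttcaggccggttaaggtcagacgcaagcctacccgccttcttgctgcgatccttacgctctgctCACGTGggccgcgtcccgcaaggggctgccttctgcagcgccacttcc
Nop2, chr6:125131633-125131882, plus strand: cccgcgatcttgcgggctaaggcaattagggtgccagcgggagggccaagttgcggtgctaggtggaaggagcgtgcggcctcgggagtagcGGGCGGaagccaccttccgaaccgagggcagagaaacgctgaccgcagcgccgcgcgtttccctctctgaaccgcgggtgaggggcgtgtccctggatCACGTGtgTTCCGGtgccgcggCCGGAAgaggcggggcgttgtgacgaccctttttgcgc
Mybbp1a, chr11:72441077-72441326, plus strand: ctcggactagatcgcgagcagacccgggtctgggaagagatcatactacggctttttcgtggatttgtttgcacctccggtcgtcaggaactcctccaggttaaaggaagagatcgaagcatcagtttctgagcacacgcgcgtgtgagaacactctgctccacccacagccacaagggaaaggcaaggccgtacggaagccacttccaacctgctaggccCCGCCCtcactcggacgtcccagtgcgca
Gar1, chr3:129831397-129831646, minus strand: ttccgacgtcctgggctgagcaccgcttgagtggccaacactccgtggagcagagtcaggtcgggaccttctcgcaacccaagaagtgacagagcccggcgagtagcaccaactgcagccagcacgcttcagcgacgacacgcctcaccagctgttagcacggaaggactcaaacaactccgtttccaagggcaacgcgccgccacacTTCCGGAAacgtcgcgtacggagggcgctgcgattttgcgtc
Utp20, chr10:88826815-88827064, minus strand: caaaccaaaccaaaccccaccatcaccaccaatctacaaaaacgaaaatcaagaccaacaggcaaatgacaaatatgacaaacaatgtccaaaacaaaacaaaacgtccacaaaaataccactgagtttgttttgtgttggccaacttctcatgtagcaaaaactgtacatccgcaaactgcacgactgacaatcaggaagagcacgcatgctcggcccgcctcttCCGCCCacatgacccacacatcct
Dkc1, chrX:75095604-75095853, plus strand: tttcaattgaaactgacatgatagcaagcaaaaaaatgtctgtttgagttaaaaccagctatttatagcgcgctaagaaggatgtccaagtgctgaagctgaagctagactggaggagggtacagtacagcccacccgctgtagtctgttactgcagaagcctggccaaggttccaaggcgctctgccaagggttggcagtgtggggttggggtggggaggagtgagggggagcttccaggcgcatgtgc
Of these stretches, that of Nop2 holds all 3 motifs, that of Dkc1 holds none of them, and in Gar1 the ETS core reads the same on both strands.

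In untreated WT cells the members covered a wide range of levels. Per kilobase of exon, Npm1 (nucleophosmin, an abundant nucleolar chaperone) was highest at 76.0 ± 2.57 CPM per kb, followed by Nhp2 at 33.2 ± 8.55 and Pes1 at 30.9 ± 2.28 CPM per kb (SD, n = 3). Nhp2 and Pes1 did not differ beyond their spread. Rrp1b at 1.48 ± 0.529 and Wdr12 at 1.30 ± 0.252 CPM per kb were lowest, again within their spread of each other. The summed level of all 38 members made up between 0.0934% and 0.235% of the counts of a library. In bulk RNA, fewer cells of a type and less RNA per cell cannot be told apart.

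The members passed through 3 phases after LPS in both genotypes. At 4 h some rose sharply and others fell, at 8 h most were below their untreated level, and at 24 h most were above their 8 h level. The summed level of the 38 members in KO cells was 1630 ± 311 CPM at 0 h, 2246 ± 97.4 CPM at 4 h, 1173 ± 33.4 CPM at 8 h (SD, n = 3 each) and 1836 ± 96.9 CPM at 24 h (SD, n = 2). In WT cells it was 1611 ± 344 CPM at 0 h, 2121 ± 100.3 CPM at 4 h, 1042 ± 95.0 CPM at 8 h and 1449 ± 327 CPM at 24 h (SD, n = 3 each). The group mean was lowest at 8 h for 27 members in KO cells and for 28 in WT cells. It was highest at 4 h for 15 members in KO cells and 19 in WT cells, and highest at 24 h for 16 members in KO cells and 6 in WT cells.

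**Figure D1:**
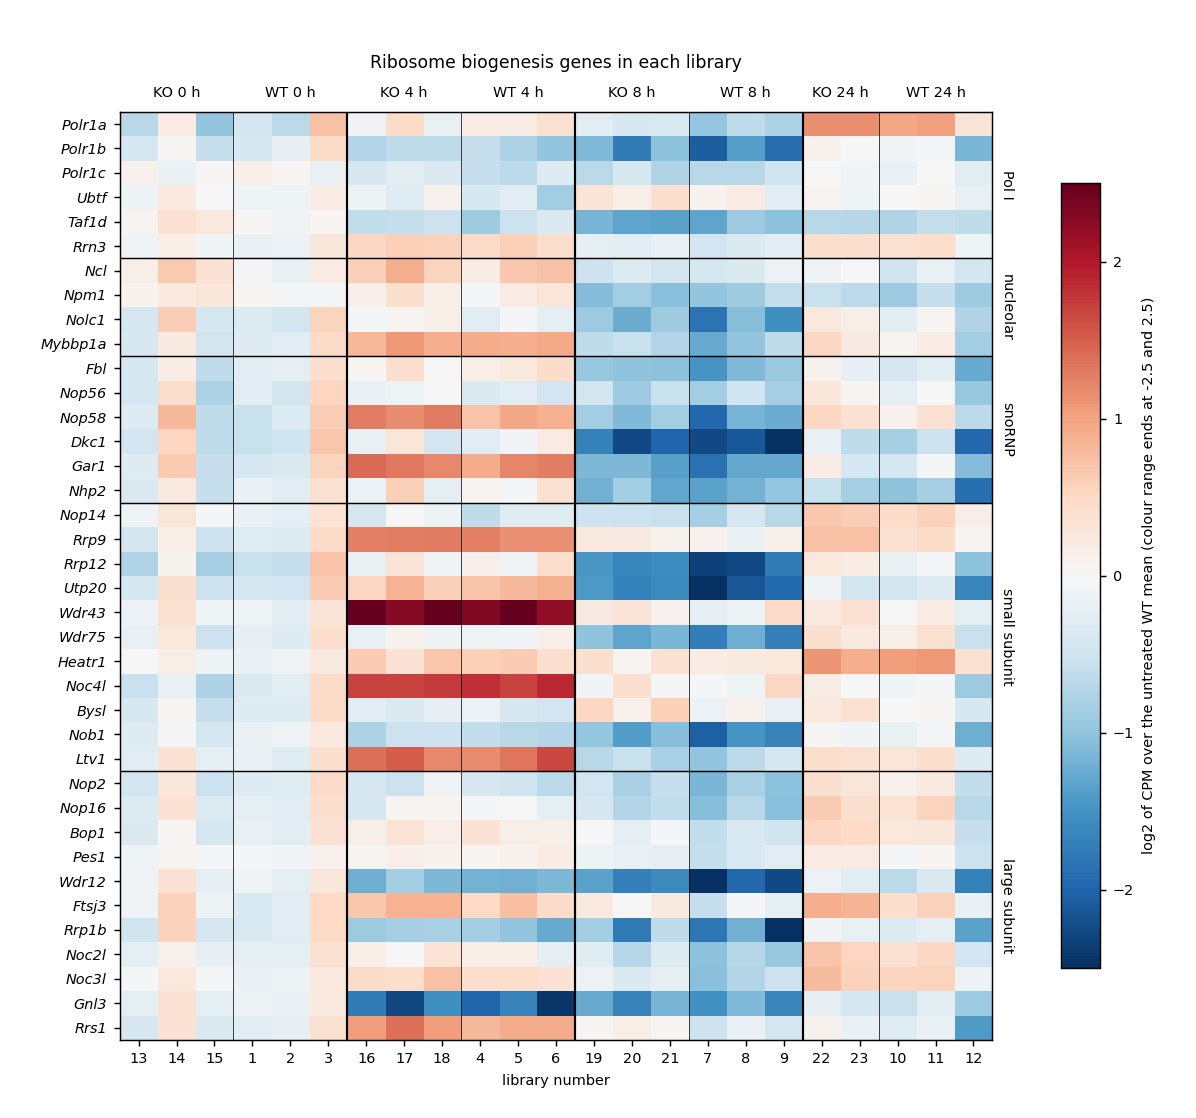
Heat map of log2 of CPM over the untreated WT mean for the 38 members (rows, grouped by role) in the 23 libraries (columns, grouped by time with KO left of WT); red is higher and blue lower than untreated WT cells, and colours end at -2.5 and 2.5. The 8 h columns are mostly blue, Wdr43, Noc4l and Ltv1 are red at 4 h, Gnl3 is blue at 4 h, and library 12 stands below libraries 10 and 11.

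Each time was tested against untreated cells with edgeR's quasi-likelihood F-test, and a gene with a Benjamini-Hochberg adjusted p under 0.05 over all 18083 genes is called. A large share of all genes was called after LPS, so the members are read against that background. At 4 h in KO cells, 14 of 38 members were called higher and 4 lower, while 28% of all genes were called higher and 34.1% lower. At 4 h in WT cells, 14 were called higher and 9 lower, against 28.2% and 34.8% of all genes. Without libraries 13, 16, 19 and 22 the KO counts at 4 h were 8 higher and 3 lower. The members' median log2 fold change was 0.28 in KO and 0.16 in WT cells, beside medians of -0.10 and -0.12 over all genes.

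At 8 h in KO cells, 2 members were called higher (Noc4l and Bysl) and 20 lower, where 28.3% of all genes were called higher and 31.9% lower. At 8 h in WT cells, none was called higher and 29 lower, where 30.3% of all genes were called higher and 35.1% lower. The median log2 fold change of the members was -0.60 in KO cells and -0.85 in WT cells, against -0.09 and -0.10 over all genes. DESeq2 also called no member higher in WT cells at 8 h and called 27 lower, and 29 in all had an unadjusted p under 0.05. With a term for the 8 libraries that deviate together, 4 were called higher and 26 lower. The share of all genes called with this term at 8 h is not given here. Because the term is fitted at each time, changes over time with it are those of the libraries outside the set. In KO cells 16 members were called at 8 h without library 14.

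At 24 h in KO cells, 10 members were called higher and 3 lower, where 22.6% of all genes were called higher and 20.8% lower. At 24 h in WT cells, 3 members were called higher and 6 lower, where 27.8% and 27.3% of all genes were called. In KO cells the members called higher were Polr1a, Rrn3, Nop14, Rrp9, Heatr1, Bysl, Bop1, Ftsj3, Noc2l and Noc3l, and those called lower were Taf1d, Ncl and Npm1. In WT cells those called higher were Polr1a, Nop14 and Heatr1, and those called lower were Taf1d, Npm1, Fbl, Dkc1, Nhp2 and Wdr12. The members' median log2 fold change was 0.34 in KO and -0.14 in WT cells. These 24 h counts depended on single libraries. In KO cells, 20 members were called without library 14, 8 without library 13 or 23, 7 without library 15 and 6 without library 22. Polr1a, Rrp9, Heatr1, Bop1, Taf1d and Npm1 were called in KO cells, and Heatr1, Taf1d, Npm1 and Nhp2 in WT cells, whichever library was left out, while Ncl in KO cells lost its call in 15 of 23 such fits and Fbl in WT cells in 12. Without libraries 13, 16, 19 and 22 together, 5 were called in KO cells, where 1 library was left at 24 h and was assumed to vary like the other groups, and 5 in WT cells. A term for the 8 libraries that deviate together, which gives the change outside that set, called 30 members higher and 2 lower in KO cells. In WT cells it called 15 higher and 4 lower. The share of all genes called with this term at 24 h is not given here, so these counts have no background beside them. Outside the set, the members' median log2 level against the untreated WT mean was -0.20 and -0.23 in libraries 1 and 2. It was -0.02 and 0.09 in libraries 10 and 11. Within the set it went the other way, from 0.44 in library 3 to -0.59 in library 12. Upper-quartile scaling gave 1 higher and 10 lower in WT cells.

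**Figure D2:**
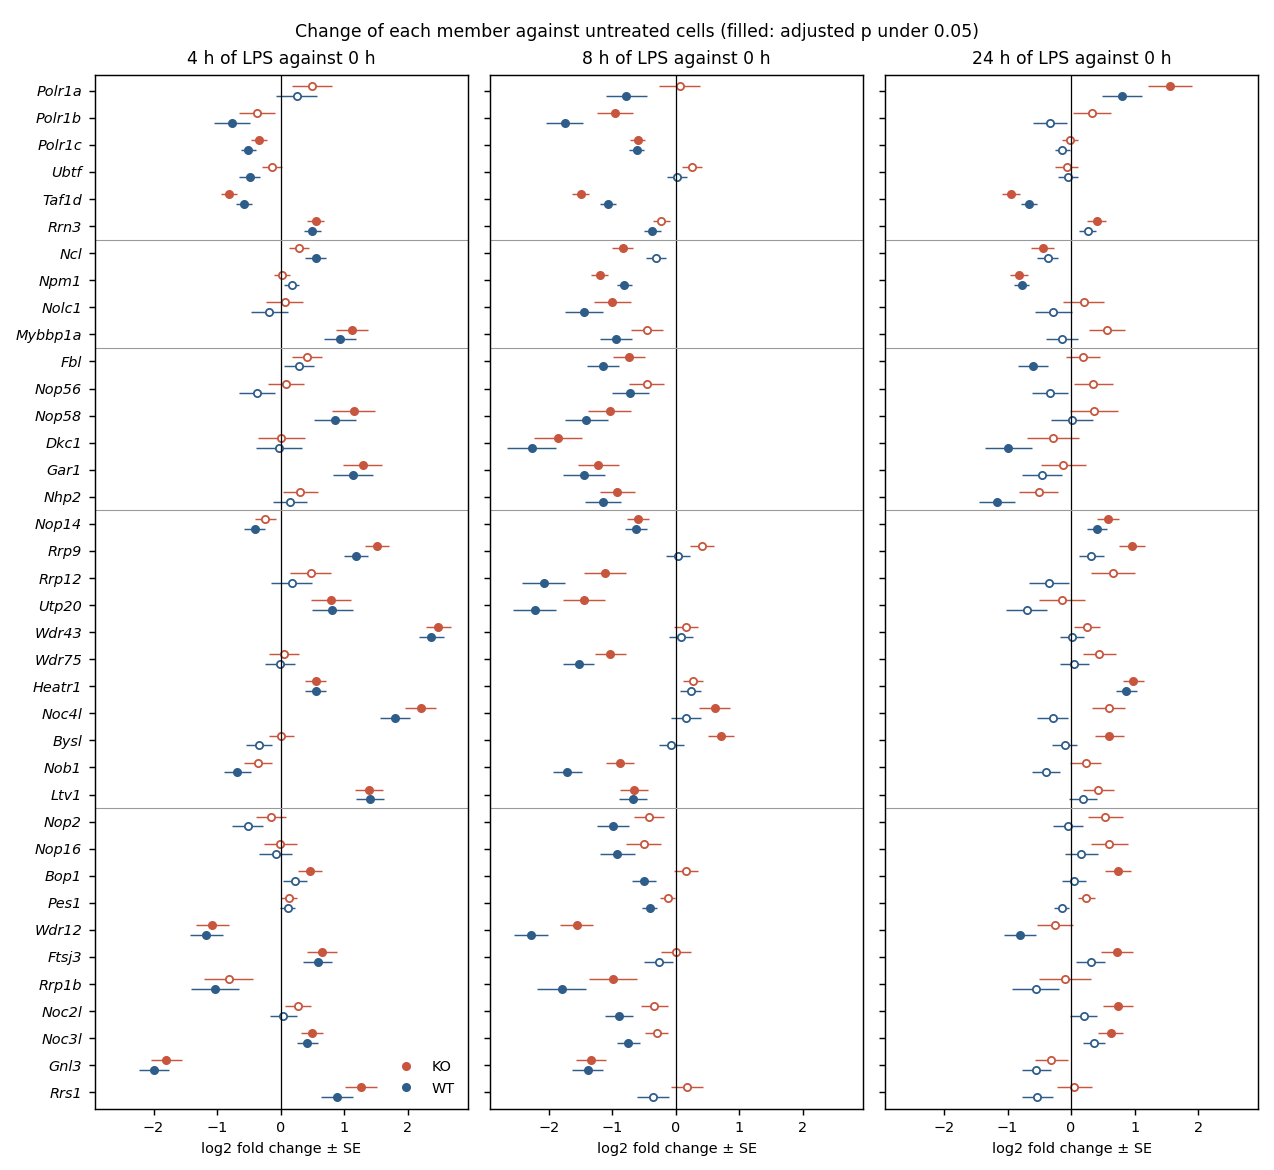
Log2 fold change with its standard error for each member after 4, 8 and 24 h of LPS against 0 h, KO above WT in each row; filled points have an adjusted p under 0.05. At 4 h members spread from -1.99 (Gnl3 in WT) to 2.48 (Wdr43 in KO), and at 8 h most points lie left of zero.

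The RNA polymerase I machinery held members that rose and members that fell at 4 h. The polymerase itself is represented by Polr1a and Polr1b, its largest subunits, and by Polr1c, a subunit shared with RNA polymerase III. Rrn3 (also TIF-IA) is the factor that makes the polymerase able to start, Ubtf is the upstream binding factor of the ribosomal DNA, and Taf1d is a subunit of the selectivity factor at its promoter. In this group of 6, 1 member was called higher and 2 lower in KO cells at 4 h, and 1 higher and 4 lower in WT cells. Of all genes, 28% were called higher and 34.1% lower in KO cells, and 28.2% and 34.8% in WT cells. The KO counts were not above these shares.

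Rrn3 (chr16:13780708-13814839) was at 49.4, 52.2 and 52.1 CPM in KO cells after 4 h, against 32.7, 39.1 and 32.9 CPM in untreated KO cells. In WT cells it was at 48.2, 52.1 and 47.1 CPM after 4 h, against 30.4, 31.3 and 42.4 CPM untreated. All 4 h libraries were above all untreated libraries of their genotype. The log2 fold change was 0.55 ± 0.13 in KO cells (SE, adjusted p = 0.00135, edgeR) and 0.50 ± 0.13 in WT cells (adjusted p = 0.00282, edgeR). At 8 h Rrn3 stood at 28.9 to 30.3 CPM in KO and 25.04 to 28.6 CPM in WT cells, below its untreated libraries in both.

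Polr1b (chr2:129100995-129126594) was lower at 8 h in both genotypes. It was at 9.42, 10.1 and 10.1 CPM in KO cells after 4 h and at 7.27, 4.68 and 7.74 CPM after 8 h, against 11.6, 16.2 and 10.6 CPM untreated. In WT cells it was at 10.5, 9.22 and 7.89 CPM after 4 h and 3.76, 6.03 and 4.21 CPM after 8 h, against 11.98, 13.7 and 21.5 CPM untreated. The 8 h libraries were below all untreated libraries in both genotypes. At 8 h the log2 fold change was -0.96 ± 0.28 in KO (SE, adjusted p = 0.00611, edgeR) and -1.75 ± 0.29 in WT cells (adjusted p = 3.09e-05, edgeR). The 4 h change of -0.77 ± 0.28 in WT cells (adjusted p = 0.0207, edgeR) lost its call without library 3 (-0.48) or library 6 (-0.67).

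Polr1c was called lower at 4 and 8 h in both genotypes. It was at 15.5, 17.3 and 16.1 CPM in KO cells after 4 h, against 22.3, 18.5 and 21.3 CPM untreated, and at 14.03, 13.3 and 16.5 CPM in WT cells after 4 h, against 22.9, 21.1 and 18.4 CPM untreated. The log2 fold change at 4 h was -0.34 ± 0.12 in KO cells (SE, adjusted p = 0.0197, edgeR) and -0.51 ± 0.12 in WT cells (adjusted p = 0.00126, edgeR), and at 8 h it was -0.60 and -0.62. The KO call at 4 h was lost without library 13, 15, 16 or 18, with values of -0.33 to -0.29.

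Taf1d (chr9:15306214-15316991) was lower at every time. It was at 9.59, 8.603 and 8.46 CPM in KO cells after 8 h, against 22.5, 27.4 and 25.6 CPM untreated, and at 8.55, 11.3 and 10.6 CPM in WT cells after 8 h, against 21.9, 20.1 and 22.1 CPM untreated. At 24 h it was still down by a log2 fold change of -0.94 ± 0.14 in KO (SE, adjusted p = 4.01e-05, edgeR) and -0.66 ± 0.13 in WT cells (adjusted p = 0.000225, edgeR), and at 4 h in WT cells the change was -0.58 ± 0.13 (adjusted p = 0.000563, edgeR). Taf1d hosts 8 annotated snoRNA genes, and 15% of its exonic bases overlap other genes, so part of its counts may belong to them.

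Ubtf was not called at 8 h. It was at 90.5, 79.7 and 95.9 CPM in KO cells after 8 h, against 65.8, 85.3 and 72.2 CPM untreated, and at 76.1, 83.2 and 60.1 CPM in WT cells after 8 h, against 67.1, 66.9 and 81.8 CPM untreated. The groups overlapped in both genotypes. At 4 h in WT cells Ubtf was lower, at 54.4, 59.8 and 39.3 CPM, a log2 fold change of -0.49 ± 0.16 (SE, adjusted p = 0.0108, edgeR) that lost its call without library 3 (-0.39) or library 6 (-0.33). At 8 h against 4 h, Ubtf was called higher by 0.40 in KO and 0.52 in WT cells, Bysl by 0.71 in KO cells and Gnl3 by 0.60 in WT cells. Leaving out 1 library ended the Ubtf call in KO cells in 14 of 23 fits (0.30 to 0.40), that in WT cells without library 6 (0.36) or 8 (0.41), and that of Gnl3 in 12 of 23 fits (0.43 to 0.66), and did not end that of Bysl. Without libraries 13, 16, 19 and 22, Ubtf and Bysl were not called in KO cells nor Gnl3 in WT cells.

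Polr1a (chr6:71909053-71984935), the catalytic subunit, had the largest rise of this role at 24 h. It was at 61.8 and 62.2 CPM in KO cells after 24 h, against 17.1, 31.9 and 13.9 CPM untreated, and at 53.9, 56.8 and 34.5 CPM in WT cells after 24 h, against 19.8, 17.4 and 46.0 CPM untreated. The groups did not overlap in KO cells and did overlap in WT cells, where library 3 was high and library 12 low. The log2 fold change was 1.56 ± 0.35 in KO (SE, adjusted p = 0.00131, edgeR) and 0.80 ± 0.32 in WT cells (adjusted p = 0.0383, edgeR). The WT value lost its call without library 1 (0.61), 2 (0.56), 10 (0.72) or 11 (0.67). With the term for the 8 libraries, the change outside that set was 2.25 in KO and 1.43 in WT cells, both called.

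**Figure D3:**
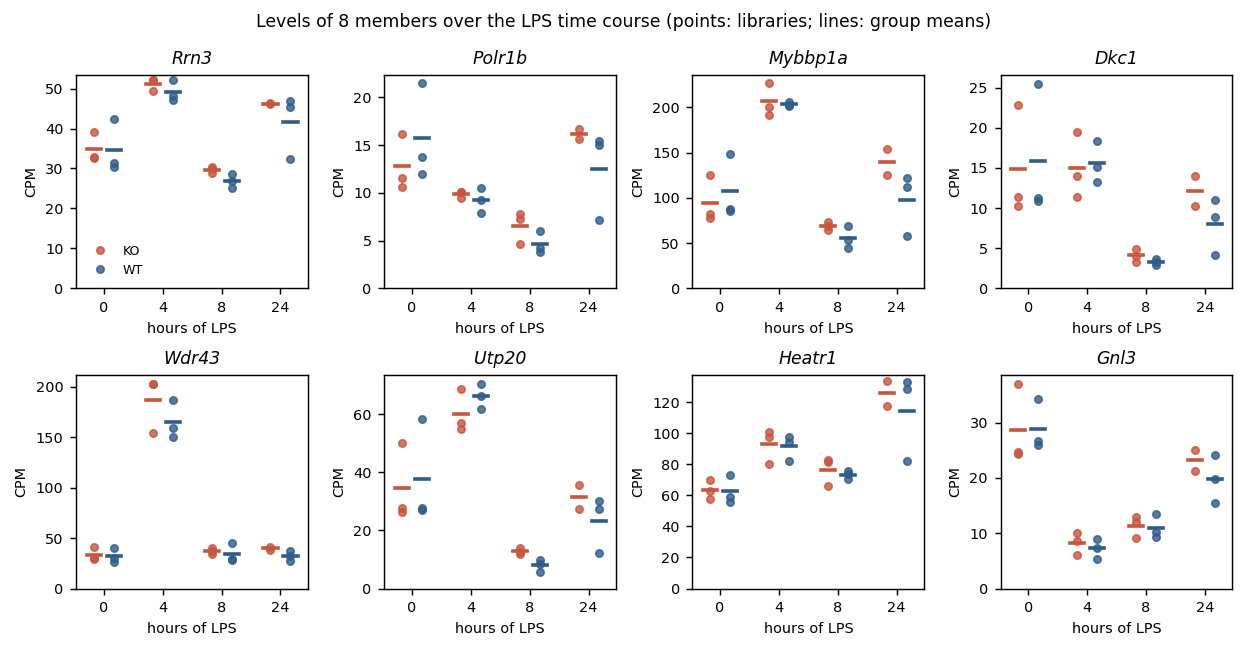
CPM of 8 members in each library (points) with group means (lines) at 0, 4, 8 and 24 h of LPS, KO left of WT; each axis starts at 0. Rrn3, Mybbp1a, Utp20 and Wdr43 are highest at 4 h, Gnl3 is lowest at 4 h, Polr1b, Dkc1 and Utp20 are lowest at 8 h, and Heatr1 is highest at 24 h.

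Among the abundant nucleolar proteins, 1 of 4 was called higher at 4 h in KO cells and 2 in WT cells. At 8 h, 3 of 4 were called lower in both genotypes. Of all genes, 28% in KO and 28.2% in WT cells were called higher at 4 h, and 31.9% and 35.1% lower at 8 h. Mybbp1a (chr11:72441355-72451768), a nucleolar protein that binds Myb and takes part in processing of the ribosomal RNA precursor, was at 192, 227 and 201 CPM in KO cells after 4 h, against 81.6, 125 and 77.5 CPM untreated. In WT cells it was at 203, 202 and 206 CPM after 4 h, against 85.3, 87.7 and 148 CPM untreated. All 4 h libraries were above all untreated ones, with a log2 fold change of 1.12 ± 0.25 in KO (SE, adjusted p = 0.000734, edgeR) and 0.93 ± 0.25 in WT cells (adjusted p = 0.00339, edgeR). Ncl encodes nucleolin, a nucleolar RNA-binding protein, and was called higher at 4 h in WT cells, by 0.55 on the log2 scale. The Ncl gene hosts 3 snoRNA genes, and 2.67% of its exonic bases overlap other genes.

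Nolc1 encodes a chaperone of snoRNPs. It was at 22.4, 17.8 and 22.7 CPM in KO cells after 8 h, against 31.2, 64.1 and 30.8 CPM untreated, and at 11.6, 20.1 and 14.4 CPM in WT cells after 8 h, against 33.0, 30.6 and 62.0 CPM untreated. The 8 h libraries lay below the untreated ones in both genotypes, with log2 fold changes of -1.0 ± 0.29 in KO (SE, adjusted p = 0.00625, edgeR; not called without library 14, at -0.56) and -1.44 ± 0.30 in WT cells (adjusted p = 0.000311, edgeR).

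Npm1 was not called at 4 h and was called lower at 8 and 24 h in both genotypes. It was at 138 and 128 CPM in KO cells after 24 h, against 216, 241 and 245.01 CPM untreated, and at 108, 136 and 109 CPM in WT cells after 24 h, against 210.4, 199.8 and 198 CPM untreated. At 24 h the log2 fold change was -0.82 ± 0.14 in KO (SE, adjusted p = 0.000138, edgeR) and -0.78 ± 0.12 in WT cells (adjusted p = 3.29e-05, edgeR). Between 8 and 24 h Npm1 was called higher in KO cells, by 0.38, a call lost without library 19, 21, 22 or 23 (0.33 to 0.44), and its change in WT cells was 0.03.

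The snoRNP proteins fell at 8 h, with 5 of 6 called lower in KO cells and 6 of 6 in WT cells. Their median log2 fold changes were -0.98 and -1.28. Of all genes, 31.9% were called lower in KO and 35.1% in WT cells at 8 h. In KO cells the calls of Fbl (-0.46), Nop58 (-0.47) and Nhp2 (-0.64) were lost without library 14. Fbl (fibrillarin, the methyltransferase), Nop56 and Nop58 belong to box C/D particles, which methylate RNA. Dkc1 (dyskerin, the pseudouridine synthase), Gar1 and Nhp2 belong to box H/ACA particles, which convert uridine to pseudouridine.

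Dkc1 (chrX:75095854-75109777) fell most of the 6. It was at 4.93, 3.33 and 4.01 CPM in KO cells after 8 h, against 11.4, 22.9 and 10.3 CPM untreated, and at 3.31, 3.65 and 2.88 CPM in WT cells after 8 h, against 10.9, 11.3 and 25.5 CPM untreated. Every 8 h library was below every untreated one, with a log2 fold change of -1.86 ± 0.38 in KO (SE, adjusted p = 0.000387, edgeR) and -2.27 ± 0.39 in WT cells (adjusted p = 5.52e-05, edgeR). At 4 h its changes were 0.01 and -0.03, so its fall lay between 4 and 8 h.

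Gar1 and Nop58 were called higher at 4 h and lower at 8 h. Gar1 was at 16.8, 15.7 and 14.6 CPM in KO cells after 4 h, against 5.05, 9.92 and 4.25 CPM untreated, and at 11.97, 14.7 and 15.3 CPM in WT cells after 4 h, against 4.68, 4.95 and 9.33 CPM untreated. No library of the 4 h groups overlapped the untreated ones, and the log2 fold change was 1.29 ± 0.31 in KO (SE, adjusted p = 0.00138, edgeR) and 1.14 ± 0.31 in WT cells (adjusted p = 0.00349, edgeR). At 8 h Gar1 was at 2.47 to 2.90 CPM in KO and 1.75 to 2.61 CPM in WT cells. Nop58 was at 57.8, 54.0 and 58.9 CPM in KO cells and at 39.0, 46.7 and 44.4 CPM in WT cells after 4 h, and its WT call at 4 h was lost without library 1, 2, 5 or 6 (0.65 to 0.84). Its level between 4 and 8 h changed by a log2 fold change of -2.19 in KO and -2.27 in WT cells.

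Nhp2 was lower in WT cells at 24 h. It was at 25.8 and 21.3 CPM in KO cells after 24 h, against 29.7, 45.3 and 25.5 CPM untreated, and at 19.02, 21.5 and 10.4 CPM in WT cells after 24 h, against 33.8, 31.2 and 49.3 CPM untreated. The groups overlapped in KO cells, where the change of -0.51 ± 0.31 was not called (SE, adjusted p = 0.196, edgeR). They did not overlap in WT cells, where the log2 fold change was -1.17 ± 0.28 (adjusted p = 0.00151, edgeR). Fbl at -0.60 and Dkc1 at -0.99 were also called lower in WT cells at 24 h. Fbl lost that call in 12 of 23 fits without 1 library (-0.60 to -0.33), and Dkc1 without library 3 (-0.47) or 12 (-0.68). In KO cells the changes of the 6 at 24 h lay between -0.51 and 0.36, and they were not called. With the term for the 8 libraries, the KO changes of Nhp2, Dkc1 and Gar1 at 24 h turned to 0.08, 0.61 and 0.65, and those of Dkc1 and Gar1 were called. Those of Fbl (0.79), Nop56 (1.05) and Nop58 (1.17) were then called higher as well. In WT cells Nhp2 stayed lower with this term (-0.75), Fbl and Dkc1 were not called, and Nop58 was called higher (0.63). Fbl was at 24.1, 23.2 and 23.02 CPM in KO and 16.7, 21.6 and 24.6 CPM in WT cells after 8 h, against 34.3, 52.9 and 30.1 CPM in untreated KO and 38.2, 39.3 and 62.2 CPM in untreated WT cells. Nop56 changed least at 8 h, by -0.46 in KO cells, which was not called. Its change of -0.72 in WT cells was called, but not without library 3, 7 or 9 (-0.67 to -0.36). Nop56 hosts 5 snoRNA genes, and 8.12% of its exonic bases overlap other genes.

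Small subunit processing held the strongest early rises. At 4 h, 6 of 11 members were called higher in KO cells and the others were not called. In WT cells 6 were called higher and 2 lower. Of all genes, 28% were called higher and 34.1% lower in KO cells, and 28.2% and 34.8% in WT cells. Wdr43, Wdr75 and Heatr1 are parts of the complex that joins the nascent precursor as it is transcribed, Rrp9 is a protein of the snoRNP that guides early cuts of the precursor, and Utp20, Nop14 and Noc4l are further parts of the small subunit processome. Bysl, Ltv1, Rrp12 and Nob1 act on later precursors of the small subunit, and Nob1 is the nuclease that makes the final cut of its RNA.

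Wdr43 (chr17:71615895-71659031) had the largest rise of all members. It was at 202, 154 and 203 CPM in KO cells after 4 h, against 28.9, 41.6 and 29.8 CPM untreated, and at 159, 187 and 149.7 CPM in WT cells after 4 h, against 29.7, 26.2 and 40.04 CPM untreated. The lowest 4 h library was far above the highest untreated library in both genotypes. The log2 fold change was 2.48 ± 0.20 in KO (SE, adjusted p = 4.91e-09, edgeR) and 2.37 ± 0.20 in WT cells (adjusted p = 8.22e-09, edgeR). At 8 h Wdr43 was at 37.3, 40.1 and 34.7 CPM in KO cells and 27.9, 29.3 and 44.6 CPM in WT cells. Wdr43 hosts 3 snoRNA genes, and 1.26% of its exonic bases overlap another gene.

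Noc4l, Ltv1 and Rrp9 followed Wdr43 in size at 4 h. Noc4l was at 83.4, 82.7 and 86.2 CPM in KO cells after 4 h, against 17.5, 22.5 and 15.1 CPM untreated, and at 91.7, 82.9 and 94.6 CPM in WT cells after 4 h, against 20.1, 21.1 and 35.9 CPM untreated. Ltv1 was at 56.5, 62.4 and 50.1 CPM in KO and 49.1, 55.1 and 68.7 CPM in WT cells after 4 h, against 17.9 to 27.9 CPM in untreated KO and 17.5 to 28.5 CPM in untreated WT cells. Rrp9 was at 31.4, 31.8 and 32.1 CPM in KO and 31.3, 29.02 and 28.9 CPM in WT cells after 4 h, against 9.18 to 14.8 CPM and 10.4 to 18.1 CPM untreated. None of the groups overlapped, and the log2 fold changes in KO and WT cells were 2.20 and 1.80 for Noc4l, 1.39 and 1.41 for Ltv1, and 1.51 and 1.19 for Rrp9. At 8 h Noc4l was still called higher in KO cells, at 24.6, 34.4 and 24.9 CPM and a log2 fold change of 0.61 that was not called without library 13, 15 or 20 (0.43 to 0.57), while in WT cells it was at 25.2, 23.9 and 36.8 CPM, a change of 0.16 that was not called.

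Utp20 (chr10:88746607-88826804) had the largest drop between 4 and 8 h in WT cells. It was at 55.0, 68.7 and 57.0 CPM in KO cells after 4 h and at 13.98, 11.8 and 12.6 CPM after 8 h, and at 61.9, 66.4 and 70.4 CPM in WT cells after 4 h and 5.81, 8.61 and 9.82 CPM after 8 h. Untreated cells had 27.8, 50.2 and 26.3 CPM in KO and 27.7, 27.1 and 58.6 CPM in WT. The 8 h libraries were below all others of their genotype. Against untreated cells the log2 fold change at 8 h was -1.44 ± 0.33 in KO (SE, adjusted p = 0.000984, edgeR) and -2.22 ± 0.34 in WT cells (adjusted p = 1.50e-05, edgeR), and against 4 h it was -2.24 and -3.03. Wdr75 was not called at 4 h and fell at 8 h by 1.03 in KO and 1.53 in WT cells on the log2 scale.

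Rrp12 and Nob1 fell at 8 h and came back by 24 h. Rrp12 was at 6.53, 5.73 and 5.99 CPM in KO cells and 3.55, 3.74 and 5.32 CPM in WT cells after 8 h, and at 21.3 and 20.4 CPM in KO and 15.7, 17.3 and 8.77 CPM in WT cells after 24 h. Nob1 was at 10.9, 8.09 and 10.3 CPM in KO cells and 5.18, 7.70 and 6.77 CPM in WT cells after 8 h, and at 21.9 and 20.4 CPM in KO and 18.7, 20.6 and 9.19 CPM in WT cells after 24 h. Between 8 and 24 h the log2 fold change was 1.78 for Rrp12 and 1.11 for Nob1 in KO cells, and 1.73 and 1.30 in WT cells, and all 24 h libraries were above all 8 h libraries. Against 0 h, Rrp12 lost its KO call at 8 h without library 14 (-0.77, against -1.12 with it). Nob1 and Nop14 were also the 2 members of this role called lower in WT cells at 4 h, Nob1 by -0.68 ± 0.22 (SE, adjusted p = 0.0120, edgeR) and Nop14 by -0.41 ± 0.17 (adjusted p = 0.0395, edgeR). Nob1 lost that call without library 3 (-0.55), and Nop14 lost it without library 3 (-0.21) or 4 (-0.30).

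Heatr1 (chr13:12395027-12440289) was above its untreated level at 4 and 24 h. It was at 134 and 117 CPM in KO cells after 24 h, against 63.1, 70.0 and 57.6 CPM untreated, and at 129, 133 and 82.0 CPM in WT cells after 24 h, against 55.7, 59.1 and 73.0 CPM untreated. The groups did not overlap, and the log2 fold change was 0.98 ± 0.17 in KO (SE, adjusted p = 0.000166, edgeR) and 0.87 ± 0.16 in WT cells (adjusted p = 0.000137, edgeR). Nop14 was at 38.2 and 36.6 CPM in KO and 32.8, 35.6 and 26.7 CPM in WT cells after 24 h, against 22.3, 29.6 and 23.3 CPM in untreated KO and 21.4, 20.1 and 30.2 CPM in untreated WT cells. Its log2 fold change of 0.58 ± 0.18 in KO (SE, adjusted p = 0.0153, edgeR) and 0.41 ± 0.16 in WT cells (adjusted p = 0.0433, edgeR) was called, and the WT call was lost without library 1 (0.33), 2 (0.30), 10 (0.38), 11 (0.32), 19 (0.41) or 21 (0.41), and the KO call without library 13, 15, 22 or 23 (0.50 to 0.61).

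Bysl, an assembly factor of the small subunit, rose in KO cells. It was at 56.4, 42.0 and 59.6 CPM in KO cells after 8 h, against 29.8, 40.4 and 26.1 CPM untreated, and at 35.1, 42.4 and 34.6 CPM in WT cells after 8 h, against 31.3, 31.4 and 54.8 CPM untreated. The KO groups did not overlap and the change of 0.71 was called, but not without libraries 13, 16, 19 and 22 (0.61). The WT groups overlapped and the change of -0.07 was not called, and with the term for the 8 libraries it was 0.31 and called. The test of the difference between these changes is given with the genotypes. About 9.37% of the exonic bases of Bysl overlap Ccnd3 on the other strand, and counting did not use strand.

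Large subunit processing was mixed at 4 h, with 4 of 11 called higher and 2 lower in KO cells and 3 higher and 3 lower in WT cells. At 8 h, 3 were called lower in KO and 9 in WT cells, and between 8 and 24 h 9 of 11 were called higher in each genotype. Of all genes at 4 h, 28% were called higher and 34.1% lower in KO cells, and 28.2% and 34.8% in WT cells. At 8 h, 31.9% were called lower in KO and 35.1% in WT cells, and the KO count was not above that share. Between 8 and 24 h, 17.9% and 23.1% were called higher. Pes1, Bop1 and Wdr12 form the PeBoW complex, which processes the large subunit's RNA. Nop2 and Ftsj3 are RNA methyltransferases of the precursor, Noc2l and Noc3l are nucleolar partner proteins, Rrs1 is known in yeast to bring a small ribosomal RNA into the large subunit, and Gnl3 is nucleostemin, a GTP-binding protein abundant in the nucleoli of dividing and stem cells.

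Gnl3 (chr14:31012433-31019152) was lowest at 4 h in both genotypes. It was at 8.68, 5.98 and 10.04 CPM in KO cells after 4 h, against 24.3, 37.1 and 24.7 CPM untreated, and at 7.37, 9.04 and 5.40 CPM in WT cells after 4 h, against 26.7, 25.9 and 34.3 CPM untreated. No libraries overlapped, and the log2 fold change was -1.80 ± 0.24 in KO (SE, adjusted p = 3.02e-06, edgeR) and -1.99 ± 0.24 in WT cells (adjusted p = 9.16e-07, edgeR). At 8 h it was at 12.1, 9.11 and 12.9 CPM in KO and 10.2, 13.5 and 9.38 CPM in WT cells. Against 4 h this was a change of 0.47 that was not called in KO cells and of 0.60 in WT cells, whose call was lost in 12 of 23 fits without 1 library (0.43 to 0.66). Gnl3 hosts 3 snoRNA genes, and 4.10% of its exonic bases overlap other genes.

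The 3 PeBoW genes did not move alike. Wdr12 (chr1:60069785-60098645) was at 6.67, 8.63 and 7.12 CPM in KO cells after 4 h and 6.15, 4.73 and 5.16 CPM after 8 h, against 14.6, 19.9 and 13 CPM untreated. In WT cells it was at 6.81, 6.74 and 7.12 CPM after 4 h and 2.35, 3.99 and 3.24 CPM after 8 h, against 14.4, 13.1 and 18.9 CPM untreated. Every treated library of those times was below every untreated one. The log2 fold change at 4 h was -1.08 ± 0.26 in KO (SE, adjusted p = 0.00120, edgeR) and -1.17 ± 0.26 in WT cells (adjusted p = 0.000608, edgeR). At 8 h it was -1.56 ± 0.26 in KO (adjusted p = 4.37e-05, edgeR) and -2.28 ± 0.27 in WT cells (adjusted p = 7.15e-07, edgeR). At 24 h it was -0.25 and not called in KO cells, and -0.80 ± 0.25 in WT cells (adjusted p = 0.0119, edgeR), a call lost without library 3 (-0.64) or 12 (-0.51).

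Bop1 and Pes1, the partners of Wdr12, did not follow it at 4 h. Pes1 was at 98.3, 102 and 100.0 CPM in KO and 97.3, 99.9 and 106 CPM in WT cells after 4 h, against 86.3 to 97.8 CPM in untreated KO and 87.5 to 101.02 CPM in untreated WT cells, and neither change was called. Bop1 was at 56.3, 64.8 and 57.2 CPM in KO cells after 4 h, against 39.8, 52.2 and 37.9 CPM untreated, a log2 fold change of 0.46 that was called but lost its call in 12 of 23 fits without 1 library (0.37 to 0.50), and of 0.22 that was not called in WT cells. At 8 h the log2 fold changes of Bop1 and Pes1 were 0.16 and -0.13 in KO cells, neither called, and -0.50 and -0.41 in WT cells, both called, that of Bop1 not without library 3, 7 or 9 (-0.50 to -0.28).

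Rrs1, Ftsj3 and Noc3l were the members of this role called higher at 4 h in both genotypes. Rrs1 was at 38.3, 47.6 and 38.1 CPM in KO cells after 4 h, against 13.98, 23.6 and 14.3 CPM untreated, and at 32.2, 34.8 and 34.9 CPM in WT cells after 4 h, against 15.3, 15.98 and 24.0 CPM untreated. The groups did not overlap, and the log2 fold change was 1.26 ± 0.25 in KO (SE, adjusted p = 0.000291, edgeR) and 0.88 ± 0.25 in WT cells (adjusted p = 0.00518, edgeR). Ftsj3 was higher by 0.65 and 0.58 and Noc3l by 0.49 and 0.42 on the log2 scale in KO and WT cells. Ftsj3 lost its KO call without library 13 (0.53) or 15 (0.52) and its WT call without library 1 (0.42), 2 (0.46) or 5 (0.48). Noc3l lost its KO call without library 13 (0.44), 15 (0.44) or 18 (0.39) and its WT call in 9 of 23 fits without 1 library (0.34 to 0.45). Without libraries 13, 16, 19 and 22, none of these Ftsj3 and Noc3l changes was called, while the values lay between 0.42 and 0.60. Rrp1b fell by 1.03 in WT cells at 4 h (SE 0.38, adjusted p = 0.0244, edgeR), a call lost without library 3 (-0.70), 5 (-1.04) or 6 (-0.92), and its change in KO cells was -0.82 and not called.

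The remaining members of this role, Nop2, Nop16 and Noc2l, were not called at 4 h, fell in WT cells at 8 h by 0.89 to 0.99 on the log2 scale, and rose in both genotypes between 8 and 24 h by 0.94 to 1.11, where Nop2 (0.91) and Nop16 (0.99) lost their KO calls without library 22. Noc2l was at 151 and 133 CPM in KO and 119, 131 and 65.8 CPM in WT cells after 24 h, against 74.0, 56.0 and 73.0 CPM in KO and 45.0, 55.9 and 47.4 CPM in WT cells after 8 h. All 24 h libraries were above the 8 h libraries, with library 12 nearest to them. About 14.4% of the exonic bases of Noc2l overlap Samd11 on the other strand.

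The steps between treated times were tested directly. From 4 to 8 h in KO cells, 2 members were called higher and 22 lower at 8 h, where 24.4% of all genes were called higher and 22.8% lower. In WT cells, 2 were called higher and 29 lower, where 24.0% and 22.8% of all genes were called. The median log2 fold change was -0.74 in KO and -1.0 in WT cells, against 0.00 and -0.02 over all genes. At 24 h against 8 h in KO cells, 28 members were called higher and none lower, where 17.9% of all genes were called higher and 16.8% lower. DESeq2 called 25 higher and none lower, and 32 in all had an unadjusted p under 0.05. In WT cells, 26 were called higher and none lower, where 23.1% and 21.9% of all genes were called. DESeq2 again called 25 higher and none lower, and 28 in all had an unadjusted p under 0.05. The medians were 0.93 and 0.82, against 0.02 and 0.03 over all genes. Without library 22 the KO count was 13, and without libraries 13, 16, 19 and 22, which leaves a single KO library at 24 h, it was 5.

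Genes of the same pathway outside the 38 were counted from lists, beside the background shares given above. For 14 other genes of RNA polymerase I, 2 were called higher and 4 lower in KO cells at 4 h and 2 higher and 4 lower at 8 h, and 3 higher and 5 lower, then 3 higher and 9 lower, in WT cells. Polr2e, a subunit that the nuclear RNA polymerases share, fell at 8 h by 1.25 in KO cells and 1.55 in WT cells on the log2 scale. Ttf1, which ends transcription of the ribosomal RNA genes, was higher in WT cells at 8 h by 0.88 and at 24 h by 1.06. For 41 other small subunit genes, 17 were called higher and 3 lower in KO cells at 4 h, and 16 higher and 5 lower in WT cells. At 8 h, 8 were called higher and 14 lower in KO cells, and 10 higher and 19 lower in WT cells. Rcl1, a processing factor of the small subunit, rose at 4 h by 3.55 ± 0.34 in KO and 3.01 ± 0.33 in WT cells on the log2 scale (SE, adjusted p = 3.56e-08 and 2.13e-07, edgeR). Nat10, which acetylates ribosomal RNA, fell at 8 h by 1.73 in KO and 2.45 in WT cells.

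For 43 other large subunit genes, 24 were called higher and 8 lower in KO cells at 4 h, and 22 higher and 10 lower in WT cells. At 8 h, 6 were called higher and 18 lower in KO cells, and 4 higher and 23 lower in WT cells. Sbds, which helps to release a late factor from the large subunit, rose at 4 h by 2.77 ± 0.18 in KO and 2.70 ± 0.18 in WT cells on the log2 scale (SE, adjusted p = 3.28e-10 and 4.25e-10, edgeR) and was still higher in WT cells at 24 h by 1.38. At 24 h against 8 h, 25 of the 43 were called higher in each genotype, and 3 lower in WT cells. Of 11 snoRNP assembly factors, 3 were called lower in KO and 6 in WT cells at 8 h, and of 14 nuclear exosome genes, which trim ribosomal RNA, 8 were called lower in each. Exosc6, a subunit of the exosome, fell at 4 h by 1.44 in KO and 1.83 in WT cells.

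The ribosomal proteins, which these factors assemble, had their lowest summed level at 24 h, when most members were above their 8 h level. Their 79 genes summed to 23009 ± 1481 CPM at 0 h, 27034 ± 519 CPM at 4 h and 18176 ± 518 CPM at 8 h in KO cells (SD, n = 3 each) and to 15918 ± 407 CPM at 24 h (SD, n = 2). In WT cells they summed to 22212 ± 2613, 24660 ± 1054, 18072 ± 709 and 12373 ± 727 CPM at the same times (SD, n = 3 each). At 4 h against 0 h, 40 of 79 were called higher in KO and 32 in WT cells. At 24 h against 0 h, 68 of 79 were called lower in KO and 75 in WT cells, and the others were not called. The medians of their log2 fold changes at 24 h were -0.50 and -0.82. Rpl3 fell at 24 h by 1.03 in KO and 1.92 in WT cells. Ribosomal protein genes have many near-identical copies, and multi-mapping reads were left out of the counts, so their levels are uncertain.

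**Figure D4:**
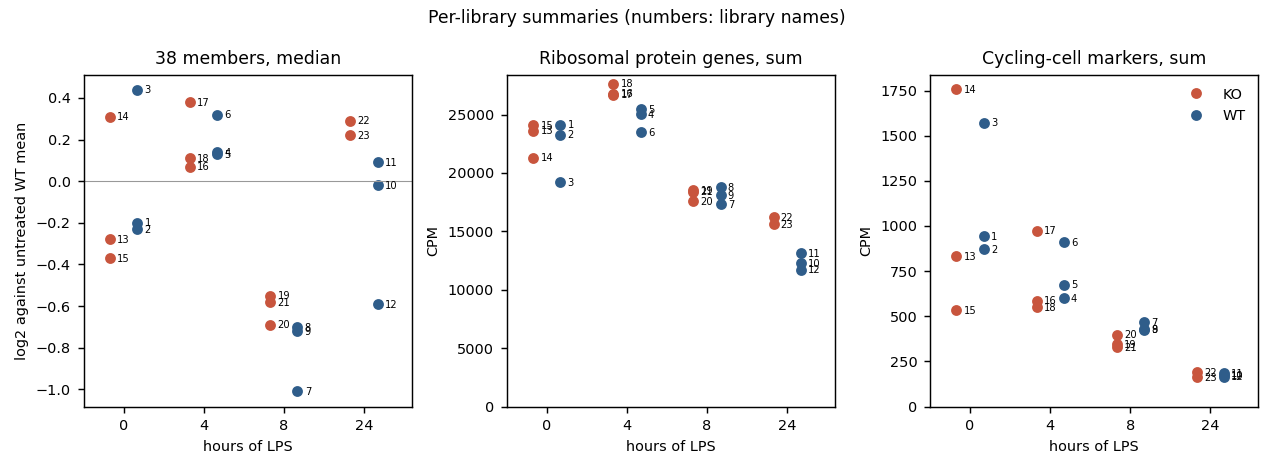
For each library (points, with its number), the median over the 38 members of log2 CPM against the untreated WT mean, the summed CPM of 79 ribosomal protein genes and the summed CPM of 9 cycling-cell markers, by hours of LPS with KO left of WT. The members rise again at 24 h while both sums are at their lowest, and libraries 14 and 3 are highest at 0 h for the members and for the cycling-cell markers.

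The summed level of 9 markers of cycling cells was lower at each later time. In KO cells it was 1041 ± 639 CPM at 0 h, 704 ± 235 CPM at 4 h, 358 ± 35.0 CPM at 8 h (SD, n = 3 each) and 177 ± 17.7 CPM at 24 h (SD, n = 2). In WT cells it was 1129 ± 385 CPM at 0 h, 729 ± 162 CPM at 4 h, 440 ± 22.5 CPM at 8 h and 174 ± 8.76 CPM at 24 h (SD, n = 3 each). All 9 markers were detected in every group. Among untreated libraries the markers and the members moved together. Libraries 14 and 3 had 1759 and 1572 CPM of the markers, against 532 to 832 CPM in the other untreated KO and 870.1 to 945 CPM in the other untreated WT libraries, and each was the highest of its group for 36 of 38 members. Their members' median lay 0.31 and 0.44 above the untreated WT mean on the log2 scale, and that of the other 4 untreated libraries between -0.37 and -0.20. At 4 and 24 h, too, the library with the highest marker sum of its group had the highest members' median. At 8 h it had the lowest, in WT library 7 (466 CPM and -1.01) and in KO library 20 (397 CPM and -0.69). The part of cycling cells in the results against 0 h was not tested.

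At 24 h library 12 stood apart among WT cells. Its members' median was -0.59, against -0.02 and 0.09 in libraries 10 and 11, and it was the lowest of its group for 35 of 38 members. In the set of 8 libraries that deviate together, the members' medians were 0.31, 0.38, -0.69 and 0.22 at 0, 4, 8 and 24 h in KO cells (libraries 14, 17, 20 and 23) and 0.44, 0.32, -0.72 and -0.59 in WT cells (libraries 3, 6, 9 and 12). In the other libraries they were -0.37 and -0.28, 0.07 and 0.11, -0.58 and -0.55, and 0.29 in KO cells, and -0.23 and -0.20, 0.13 and 0.14, -1.01 and -0.70, and -0.02 and 0.09 in WT cells. The 8 h median was the lowest in each of these 4 combinations of set and genotype. The 4 h median lay above the 0 h median in the other libraries of both genotypes and in the set in KO cells, and below it in the set in WT cells.

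Between genotypes, no member was called at any time, and the members' medians at 8 and 24 h lay above 0. With edgeR, 0 of 38 members were called at 0, 4, 8 and 24 h and averaged over times, and DESeq2 also called 0 in each. At the adjusted threshold, 1.52%, 1.24%, 2.20% and 1.19% of all genes were called at the 4 times and 6.27% for the average. At the looser threshold of an unadjusted p under 0.05 there were 1, 1, 6 and 4 members at the 4 times and 8 for the average. The share of all genes at that looser threshold is not given here, so these counts cannot be set against a background. The members' median log2 fold change of KO over WT was -0.05, 0.08, 0.31 and 0.39 at 0, 4, 8 and 24 h, where that of all genes lay between 0.00 and 0.01, and 14, 27, 33 and 37 of the 38 were positive. All KO libraries were above all WT libraries for 2, 4, 14 and 21 members at those times, and for none were they all below. Of all genes, 10.6%, 6.98%, 11.3% and 16% were above in this way and 10.2%, 5.34%, 10.1% and 15.5% below. The summed markers of neutrophils and their precursors were likewise higher in every KO library than in any WT library at 0 and 4 h. In these comparisons libraries 13, 16, 19 and 22, with Selenow near the WT level, are counted as KO. At 8 h, WT library 7 was the lowest of its group for 30 of 38 members. Its members' median log2 level against the untreated WT mean was -1.01, against -0.70 and -0.72 in libraries 8 and 9 and -0.69 to -0.55 in KO libraries. At 24 h that median was -0.59 in WT library 12, against -0.02 and 0.09 in libraries 10 and 11 and 0.29 and 0.22 in KO libraries 22 and 23.

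Noc3l, a large subunit factor, had the smallest p at 8 h. It was at 9.56, 8.20 and 9.12 CPM in KO and 5.12, 6.37 and 7.35 CPM in WT cells, with no overlap and a log2 fold change of 0.51 ± 0.18 (SE, adjusted p = 0.177, edgeR). Pes1 had the smallest p at 24 h. It was at 107 and 108 CPM in KO and 92.03, 97.0 and 64.5 CPM in WT cells, with no overlap and a log2 fold change of 0.35 ± 0.13 (SE, adjusted p = 0.285, edgeR). Averaged over times, Ftsj3 had the smallest p, with a log2 fold change of 0.34 ± 0.12 (SE, adjusted p = 0.0972, edgeR), and it was called without library 3 (0.42, adjusted p = 0.0167). Wdr12 was called in the average without library 11 (0.44, adjusted p = 0.0415). At 0 h Ncl had the smallest p, at 215, 306 and 249.5 CPM in KO and 188, 171 and 223 CPM in WT cells, with overlap and a log2 fold change of 0.40 ± 0.16 (SE, adjusted p = 0.283, edgeR). At 4 h it was Ubtf, at 65.8, 58.6 and 77.8 CPM in KO and 54.4, 59.8 and 39.3 CPM in WT cells, with overlap and a log2 fold change of 0.40 ± 0.16 (SE, adjusted p = 0.499, edgeR).

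Other genes of the pathway were counted in the same average over times. Over all genes, 6.27% were called in either direction. Of the 41 other small subunit genes 7 were called higher in KO cells, of the 43 other large subunit genes 6, and of the 79 ribosomal protein genes 13, and the others of these lists were not called. The other RNA polymerase I genes went both ways, with Znrd1 lower by 0.24 ± 0.05 (SE, adjusted p = 0.00638, edgeR). Twistnb of that list was higher by 0.27 ± 0.06 (adjusted p = 0.00816, edgeR), and the exosome gene Mtrex by 0.30 ± 0.07 (adjusted p = 0.0158, edgeR). Utp11, a small subunit factor, was higher by 0.49 ± 0.06 (SE, adjusted p = 7.94e-06, edgeR), and Ddx18, an RNA helicase, by 0.31 ± 0.08 (adjusted p = 0.0332, edgeR). Rpl34 was higher by 2.74 ± 0.06 (adjusted p = 6.72e-17, edgeR), a gene with near-identical copies whose value is uncertain.

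**Figure D5:**
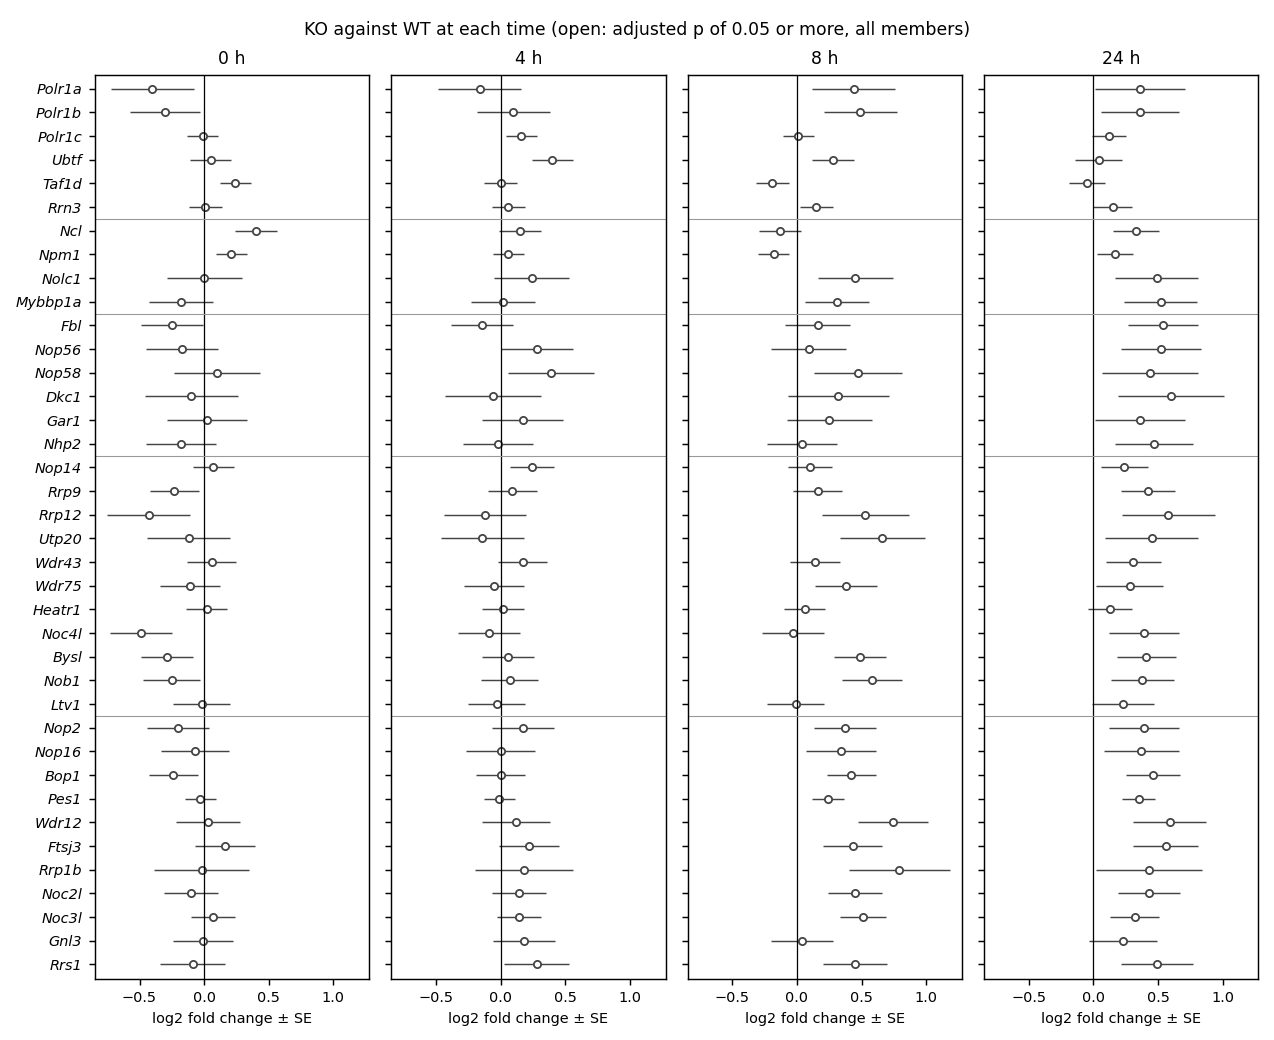
Log2 fold change of KO over WT with its standard error for each member at 0, 4, 8 and 24 h; all points are open because no member had an adjusted p under 0.05. At 8 and 24 h, 33 and 37 of the 38 points lie right of zero. WT library 7 at 8 h and WT library 12 at 24 h were the lowest of their groups for 30 and 35 of the 38 members.

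The response to LPS was compared between genotypes by the interaction of genotype and time, the log2 fold change in KO cells minus that in WT cells. With edgeR and with DESeq2, 0 of 38 members were called at 4, 8 or 24 h. Of all genes, 0.0442%, 0.0442% and 0.0% were called with edgeR. At the looser threshold of an unadjusted p under 0.05 there were 0, 6 and 7 members, and the share of all genes there is not given. The members' medians were 0.17, 0.41 and 0.47. The smallest p at 8 h was that of Bysl, with 0.78 ± 0.29 (SE, adjusted p = 0.306, edgeR), and at 24 h that of Bop1, with 0.70 ± 0.29 (SE, adjusted p = 0.433, edgeR). At 4 h it was that of Ubtf, with 0.35 (adjusted p = 1, edgeR). Bop1 was at 72.6 and 71.8 CPM in KO cells after 24 h, against 39.8, 52.2 and 37.9 CPM untreated, and at 60.9, 62.3 and 34.3 CPM in WT cells, against 44.9, 42.4 and 65.7 CPM untreated.

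These counts changed when the set of libraries that deviate together entered the fit as a term at each time. Between genotypes, 14 members were then called higher in KO cells at 8 h, 25 at 24 h and 22 for the average, where 16.2%, 19.5% and 23.9% of all genes were called. At 0 h 1 was called higher and 1 lower, and at 4 h 1 higher. At 24 h the called members had log2 fold changes between 0.43 (Noc3l and Pes1) and 0.82 (Dkc1), and at 8 h the range ran from 0.29 (Ubtf) to 0.81 (Rrp1b). The interaction called 12 members at 8 h (10 higher and 2 lower) and 18 at 24 h (all higher), where 12.7% and 16.4% of all genes were called. The set was defined from the same libraries, so these p-values may be too small. Without libraries 13, 16, 19 and 22, no member was called between genotypes or in an interaction.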

How the data were processed

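Bulk RNA was sequenced from 23 libraries of bone marrow-derived macrophages. RNA was extracted on columns with DNase and sequenced as paired ends, per the labels' protocols. The deposited values are counts per gene made by the authors with HISAT2 and featureCounts 2.0.1 on GRCm38 with Ensembl release 101, per the submitters' processing notes and the file headers. Strand was not used, a fragment over several genes was counted for each, and multi-mapping reads were left out, per the file headers. The HISAT2 version is not given in the sources used here. Symbols were matched through GENCODE M21 (55141 of 55401 IDs).

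From these counts, edgeR 4.0.16 in R 4.3.3 fitted 8 group means over all 23 libraries, with TMM scaling and its default filter on low counts, which kept 18083 genes. Quasi-likelihood F-tests were adjusted by Benjamini-Hochberg over all of them, with a threshold of 0.05. CPM values use the library totals scaled by TMM. The fit was tested on simulated data. Alternatives were RLE and upper-quartile scaling, DESeq2 1.42.0, other filters, a test against a fold of 1.5, fits on the 2 or 4 groups of a comparison alone, omission of each library and of libraries 13, 16, 19 and 22, and a term for the set of 8 libraries at each time. With that term, changes over time are those of the libraries outside the set.

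The members and all gene lists were chosen with earlier results of these data known. Members are named with full statistics where they had the largest called rise or fall of their role in WT cells, went against the majority of calls, or had the smallest p between genotypes or in an interaction. Other members' values are given as description, and from other lists the largest called rise or fall is named.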

Additional observations from a re-analysis of the deposited data

How the results depend on the processing

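Of 223 calls of a member in a comparison, none changed sign in 7136 recomputed values. Changes that were not called did so in 508 of 14714 recomputed values. Of these, 8 were then called, all changes over time with the term for the set of 8 libraries. Such changes are those of the libraries outside the set. In KO cells at 24 h against 0 h the called ones were Dkc1 (0.61), Gar1 (0.65), Utp20 (0.68) and Rrp1b (0.61), and at 24 h against 8 h Noc4l (0.45). In WT cells they were Mybbp1a (0.32) and Nop2 (0.39) at 24 h and Bysl (0.31) at 8 h against 0 h. For the 34 results chosen by the naming rule (WT times against 0 h, genotypes and interactions), 1028 of 1087 recomputed values kept their direction and their side of the threshold, 51 lost the call and 8 gained one. Tested against a fold of 1.5, members called against 0 h fell in number to 11, 9 and 3 in KO cells and to 7, 17 and 2 in WT cells at 4, 8 and 24 h. The same test called 8 members at 24 h against 8 h in KO cells and 12 in WT cells, and 20 at 8 h against 4 h in WT cells. A fit of only the groups compared called 5 members in WT cells at 24 h against 0 h. Without libraries 13, 16, 19 and 22, 11 members were called in KO cells at 4 h against 0 h, 5 at 24 h against 0 h and 5 at 24 h against 8 h, and 5 in WT cells at 24 h against 0 h. The term for the set of 8 libraries gave 32 called members in KO and 19 in WT cells at 24 h against 0 h, 2, 1, 14 and 25 between genotypes at 0, 4, 8 and 24 h, 22 for the average, and 12 and 18 in the interaction at 8 and 24 h. Where none of these shows it by its construction, the cause was not tested.

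Leaving out 1 library at a time gave 14 to 22, 16 to 23 and 6 to 20 called members in KO cells at 4, 8 and 24 h against 0 h, and 17 to 24, 24 to 29 and 7 to 12 in WT cells. It gave 22 to 28 in KO and 28 to 32 in WT cells at 8 h against 4 h, and 13 to 30 and 20 to 28 at 24 h against 8 h. Called in every such fit were 13 of 18, 14 of 22 and 6 of 13 members in KO cells against 0 h, and 14 of 23, 24 of 29 and 4 of 9 in WT cells. Between genotypes it gave 0 to 1 for the average and 0 to 0 at each time and in each interaction.

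Upper-quartile scaling moved the median of all genes at 8 h against 0 h to -0.17 and at 24 h to -0.11 in KO and -0.10 in WT cells. No paired analysis was run because the groups compared share no replicate number in the labels, so the tests treat the libraries as unpaired. The set of 8 libraries, which was found in the data and not in the labels, was fitted as a term instead, with the changes in calls given above. A fit of only the groups compared holds all groups for the average over times and was not run for it. With 2 libraries in KO cells at 24 h and 3 in the other groups, changes of less than the spread between libraries were not detectable.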
